A study of Mus musculus with 3 samples.

Results

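The catenins are the cytoplasmic partners of cadherins, and 8 of their genes were examined here: Ctnnb1 (β-catenin), Jup (plakoglobin, or γ-catenin), the α-catenin genes Ctnna1, Ctnna2 and Ctnna3, the p120 family genes Ctnnd1 (p120-catenin) and Ctnnd2 (δ-catenin), and Ctnnbip1, which encodes a small inhibitor of β-catenin. They were taken by gene symbol from the deposited tables, which hold 51826 genes. All 8 were among the 18074 measured genes, which are those with 20 or more estimated counts in 1 library or more. The RNA came from the spinal cord of C57BL/6 embryos at day 13.5 and was sequenced as 3 libraries, 1 for each genotype. WT was wild type, and its labels name no Cre. The dE3 library carried Nestin-Cre and a floxed exon 3 of Ctnnb1, a deletion labelled gain of function. The cKO library carried Nestin-Cre and floxed exons 2 to 6, a deletion labelled loss of function.

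At cadherin junctions, β-catenin or plakoglobin binds the cadherin tail and an α-catenin, which links it to actin, while p120 family members bind the tail nearer the membrane and hold the cadherin at the surface. Another pool of β-catenin carries Wnt signals: a destruction complex marks it for degradation when Wnt is absent, and otherwise it enters the nucleus and works with TCF/LEF factors. Ctnna2 and Ctnnd2 are mainly neural genes, Ctnna1 and Ctnnd1 are broadly expressed, Ctnna3 is best known from heart and testis, and plakoglobin is also a component of desmosomes. Nestin-Cre acts in neural progenitors and their descendants, so vessel, meningeal and skeletal cells that remain in a dissected cord mostly keep an intact gene.

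With 1 library for each genotype, none of the differences has a replicate check, and no p-value was computed. How many embryos went into a library is not stated. A tag in the sample names reads L2 for WT and dE3 and L3 for cKO, so the tag and the cKO genotype cannot be told apart. The 3 libraries summed to 32167470, 34790053 and 33048837 estimated counts, and all triplets of values are given in the order WT, dE3, cKO. CPM is the count per 1000000 of the library after TMM scaling (trimmed mean of M values), and intervals after a ratio are exact, at 95%, and cover counting error only. TPM, as deposited, divides by transcript length and serves to compare genes with each other. Markers of neural tissue were present, with summed levels of 8798, 7832 and 8913 CPM for 10 pan-neuronal genes and 1391, 1437 and 1214 CPM for 10 progenitor genes. Of 11 listed Wnt target genes, 10 were 2-fold or more above WT in dE3 and 1 (Notum) in cKO. Of all measured genes, 6.52% were so in dE3 and 3.48% in cKO.

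The exon removed in dE3 holds the sites through which β-catenin is degraded. Exon 3 (chr9:120950522-120950749, plus strand, GRCm38) is a coding exon of 228 bases, or 76 codons, so its loss keeps the reading frame. It is printed here from the GENCODE transcript Ctnnb1-201, with capitals on the codons of serine 33, serine 37, threonine 41 and serine 45. Casein kinase 1 and GSK3 phosphorylate these residues, and the phosphorylated stretch is what the ubiquitin ligase recognises.

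Ctnnb1 exon 3: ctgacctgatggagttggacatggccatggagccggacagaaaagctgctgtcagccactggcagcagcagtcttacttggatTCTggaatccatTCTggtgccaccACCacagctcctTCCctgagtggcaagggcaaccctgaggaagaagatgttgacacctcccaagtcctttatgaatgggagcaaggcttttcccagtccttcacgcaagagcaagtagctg

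Exons 2 to 6, deleted in cKO, hold 984 bases of Ctnnb1-201 (27.2% of its length), including the start codon in exon 2, whereas exon 3 alone holds 6.29%. A gene total thus still counts RNA from the other exons and from cells without recombination.

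Per length, β-catenin RNA was the most abundant of the catenins. Ctnnb1 (ENSMUSG00000006932, chromosome 9, 120929216 to 120960507, plus strand) led in each library, at 482, 473 and 337 TPM. The order below it in WT was Ctnna2 (186 TPM), Ctnnd1 (114), Ctnnbip1 (83.8), Ctnnd2 (76.7), Ctnna1 (49.0), Jup (47.9) and Ctnna3 (7.82). The leading 3 genes and the lowest gene were the same in each library. In dE3, Ctnna1 (78.6 TPM) stood next after Ctnnd1, and in cKO Jup (68.7 TPM) stood just above Ctnna1 (64.5 TPM). No replicate spread exists to separate neighbours such as Ctnna1 and Jup in WT.

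**Figure D1:**
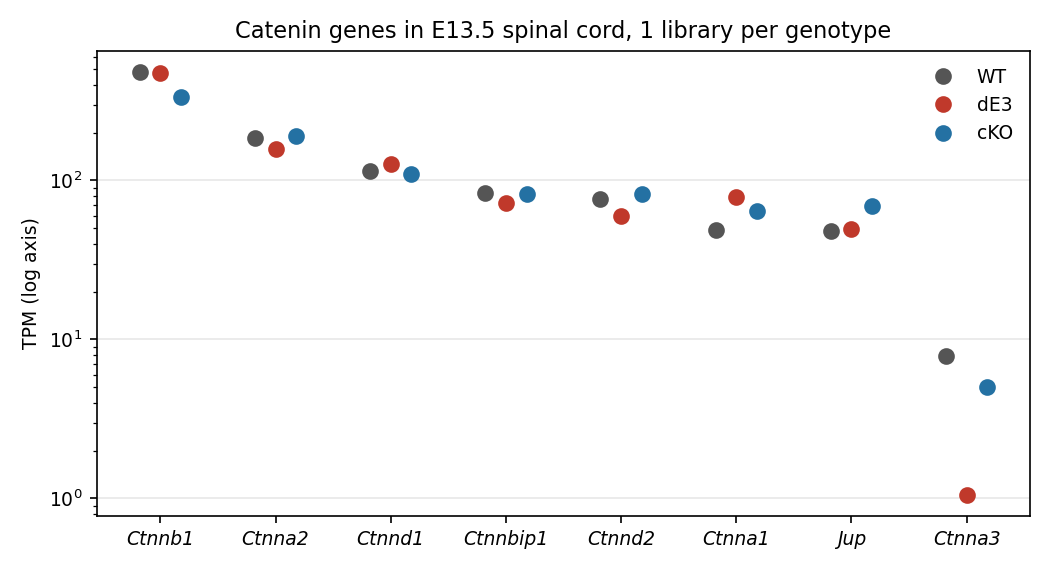
TPM (log axis) of the 8 catenin genes, ordered by their level in WT, with 1 point per library. Ctnnb1 is highest in all 3 libraries, Ctnna3 is lowest, and the widest gap between libraries is that of Ctnna3, at 7.82 TPM in WT and 1.06 in dE3.

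Against WT, the catenin genes differed by modest amounts, apart from Ctnna3. A gene is said here to stand apart when it was 25% or more higher, or 20% or more lower, with an interval that excluded a ratio of 1. In dE3, 3 of the 8 stood apart from WT, where 32.6% of all measured genes did (17.3% higher, 15.3% lower). They were Ctnna1, which was higher, and Ctnna3 and Ctnnd2, which were lower. In cKO, 4 of the 8 stood apart, where 25.2% of measured genes did (12.9% higher, 12.4% lower): Jup and Ctnna1 were higher, Ctnnb1 and Ctnna3 lower. Between dE3 and cKO, 3 stood apart, all lower in dE3 (Jup, Ctnna3 and Ctnnd2), against 38.3% of measured genes (20.2% higher, 18.1% lower).

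At 2-fold, Ctnna3 alone passed in dE3 against WT, with 10.3% of measured genes (6.52% higher, 3.78% lower). It was also alone in dE3 against cKO, with 11.0% (6.62% higher, 4.38% lower). In cKO against WT 0 of 8 passed, with 6.89% (3.48% higher, 3.41% lower). All members but Ctnna3 had over 1000 counts, and among genes of that depth 24.2% stood apart in dE3 against WT, 14.6% in cKO against WT and 30.4% in dE3 against cKO. At 2-fold these shares were 3.8%, 1.42% and 3.7%. Read against these backgrounds, the members' count in dE3 was near that of all genes. Their median log2 ratio to WT was -0.24 for dE3 and -0.01 for cKO, beside 0.00 for all measured genes in both. Both comparisons use the same WT library, so a deviation of that library enters both.

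**Figure D2:**
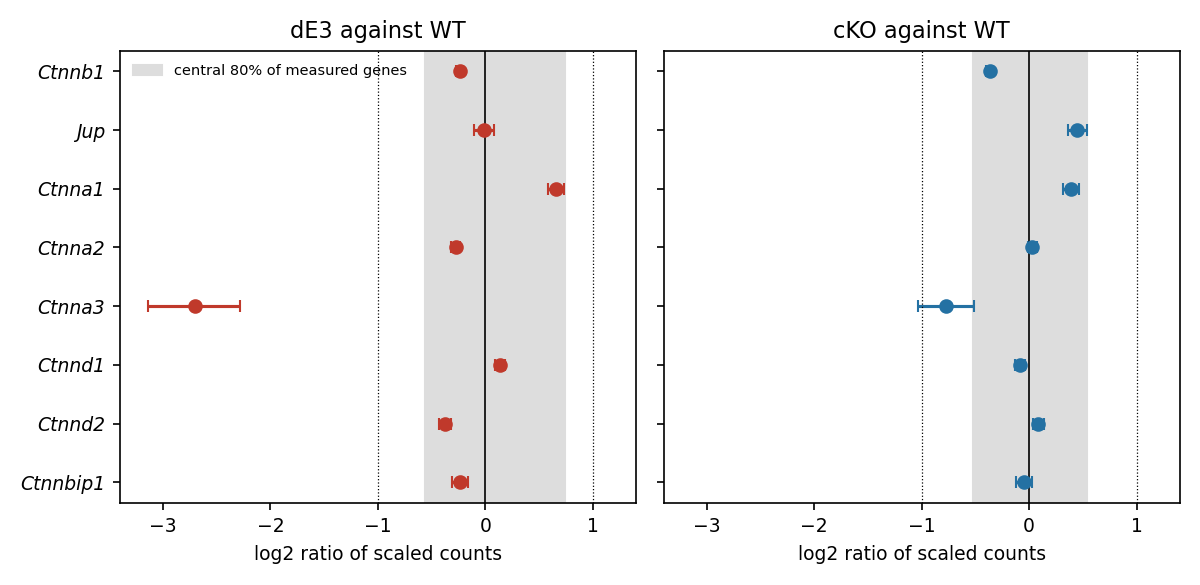
Log2 ratio of scaled counts to WT for the 8 catenin genes in dE3 (left) and cKO (right); bars are 95% counting intervals, dotted lines mark 2-fold, and the grey band holds the central 80% of measured genes. In dE3 Ctnna3 lies outside the band and Ctnna1, at 0.66, lies inside it, and in cKO Ctnna3, at -0.77, is the gene outside the band.

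β-catenin RNA, taken over the whole gene, was lower in both mutants by scaled counts. Ctnnb1 had 17387, 16158 and 13936 counts, or 544, 461 and 422 CPM. Its ratio to WT was 0.847 (0.829 to 0.866) for dE3 and 0.776 (0.758 to 0.793) for cKO. The dE3 value did not reach the limit for standing apart, and 24.2% of measured genes lay at or below it. On the TPM scale the log2 ratio of dE3 to WT was -0.026. WT was the highest of the 3 libraries and cKO the lowest. Directly compared, dE3 was 1.09-fold higher than cKO (1.07 to 1.12), a direction that turned with the choice of transcripts.

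That gene total is a sum over transcripts that differed in opposite directions. Of the 15 annotated Ctnnb1 transcripts, 3 took 97.7%, 93.3% and 97.6% of the gene's counts. Ctnnb1-201 is the full-length coding transcript with 15 exons. Ctnnb1-208 has the same exons but joins exons 10 and 11 a few bases downstream at both ends, which shifts the frame, and it is annotated as a target of nonsense-mediated decay. Ctnnb1-209 is annotated as a retained-intron transcript: it runs from exon 10 into the next intron and ends there, so it lacks exons 11 to 15. The 3 ways out of exon 10 are printed because these few bases separate the transcripts. Capitals mark the 3 first bases of exon 11 in Ctnnb1-201, the 4 bases that take their place in Ctnnb1-208, and the intron bases in Ctnnb1-209.

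Ctnnb1-201: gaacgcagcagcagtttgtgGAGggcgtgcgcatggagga
Ctnnb1-208: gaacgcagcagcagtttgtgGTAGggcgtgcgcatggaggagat
Ctnnb1-209: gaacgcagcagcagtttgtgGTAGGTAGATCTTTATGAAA

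All begin at position 120955953 of chromosome 9 (plus strand, GRCm38), with the last 20 bases of exon 10, and Ctnnb1-209 ends at 120956447, after 475 of the 1134 bases of the intron.

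The retained-intron transcript was high in dE3 and low in cKO, and the full-length transcript the reverse. Ctnnb1-209 had 7116, 11477 and 1922 counts. It made up 40.9% of the gene's counts in WT (95% exact binomial interval 40.2 to 41.7), 71.0% in dE3 (70.3 to 71.7) and 13.8% in cKO (13.2 to 14.4). Against WT, it was 1.47-fold higher in dE3 (1.43 to 1.51), while cKO was at 0.261 of WT (0.248 to 0.275).

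Ctnnb1-201 had 5892, 2807 and 9189 counts, which was 33.9%, 17.4% and 65.9% of the gene. Its ratio to WT was 0.434 (0.415 to 0.454) for dE3 and 1.51 (1.46 to 1.56) for cKO. The library labelled loss of function thus held the most counts assigned to Ctnnb1-201, whose annotated sequence includes the exons deleted in cKO. Whether these counts came from RNA that holds those exons was not tested. Ctnnb1-208 was lower in both mutants, with 3971, 786 and 2496 counts and ratios of 0.180 (0.167 to 0.195) and 0.608 (0.578 to 0.640). The 5 transcripts that reach exon 15, the last exon, took 57.3%, 27.0% and 84.3% of the counts. Their sum was at 0.399 of WT in dE3 (0.385 to 0.414) and 1.14-fold higher in cKO (1.11 to 1.17).

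**Figure D3:**
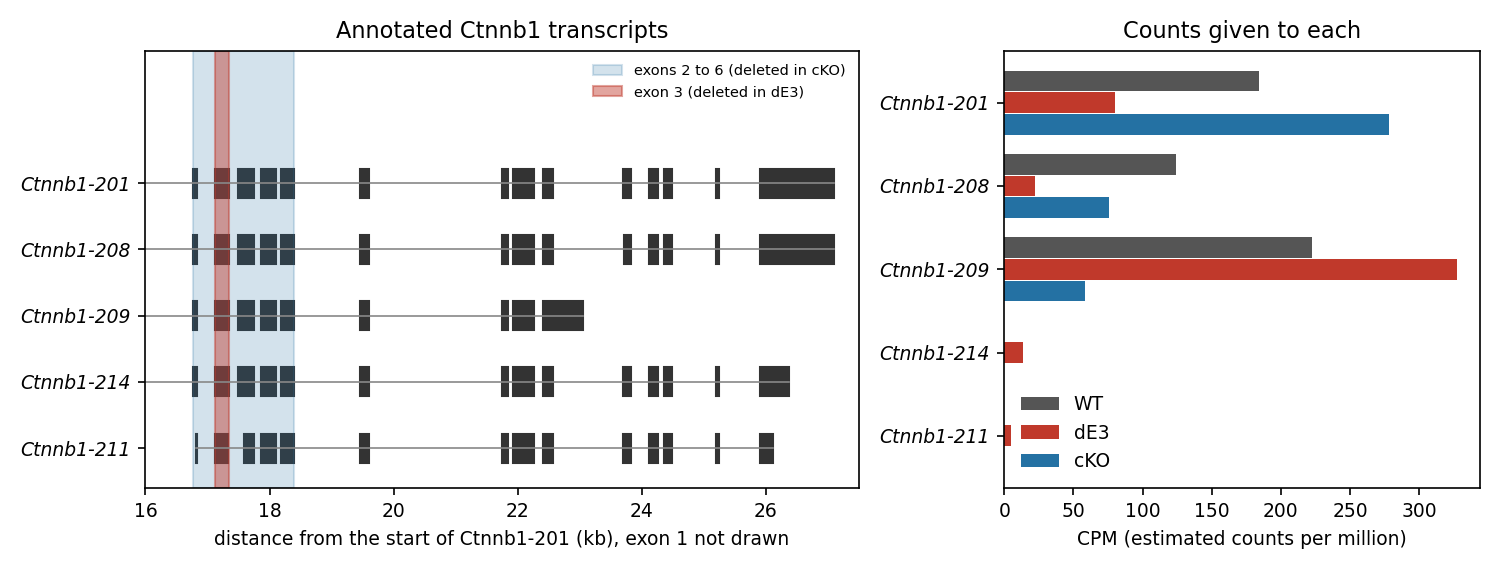
Left, exons of 5 annotated Ctnnb1 transcripts by distance from the start of Ctnnb1-201 in kb, with exon 3 (red) and exons 2 to 6 (blue) shaded; right, the CPM given to each in the 3 libraries. All 5 cover the shaded exons at least in part, and Ctnnb1-209, which ends after exon 10, takes 11477 counts in dE3 against 1922 in cKO.

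These counts are the authors' estimates, and the annotated transcripts carry none of the engineered deletions. The 6 transcripts that hold the whole of exon 3 made up 97.8%, 96.3% and 97.8% of the gene's counts, so the deposited transcripts do not report on the removal of exon 3. Among the leading 3, Ctnnb1-209 has the largest part of its length in the deleted exons: 9.67% in exon 3 and 41.7% in exons 2 to 6, against 6.29% and 27.2% for Ctnnb1-201. The 6 short transcripts that start after exon 6 had 376, 412 and 313 counts in all, at 0.999 of WT (0.867 to 1.15) in dE3 and 0.805 (0.691 to 0.938) in cKO. Without Ctnnb1-209, the whole-gene log2 ratio to WT was -1.27 for dE3 and 0.18 for cKO, and over protein-coding transcripts alone it was -0.93 and 0.57. The log2 ratio of dE3 to cKO went from 0.13 to -1.45 and -1.50 under the same choices. The lower level of Ctnnb1 in cKO turned into a higher one under both choices, and the value for dE3 moved further below WT. Both choices leave out Ctnnb1-209, the transcript that differed most, so the values move by construction.

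A further pair of transcripts had counts in dE3 and none in WT or cKO. Ctnnb1-214, whose coding length equals that of Ctnnb1-201, had 473 counts. Ctnnb1-211, which holds 202 of the 228 bases of exon 3, had 183 counts. With a floor of 3 counts for the WT library, they were 144-fold and 55.6-fold higher in dE3, where both together made up 4.06% of the gene's counts. The exact intervals, which do not use the floor, began at 116 and 44.8.

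Shifts between transcripts were looked at over the 5161 genes that had at least 1000 counts in each library and 2 or more transcripts of at least 20 counts. Of these genes, 10.1% had a transcript whose share moved by 25 percentage points or more between WT and dE3, 11.1% between WT and cKO and 10.9% between dE3 and cKO. The largest shifts of Ctnnb1 were 30.1, 32.0 and 57.2 points, and 92.3%, 91.9% and 97.7% of these genes lay at or below them. Those of Ctnnd1 were 24 (dE3 against WT), 70.0 and 46.0 points, with 89.6%, 98.8% and 95.8% of genes at or below. The median gene shifted by 3.35, 3.84 and 4.08 points, and Jup, Ctnna2 and Ctnnbip1 by at most 5.19 points.

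Plakoglobin, the closest relative of β-catenin and able to take its place at cadherins, was higher in cKO. Jup (ENSMUSG00000001552, chromosome 11, 100368958 to 100397763, minus strand) had 1847, 2004 and 2605 counts, or 57.8, 57.2 and 78.9 CPM. The cKO library was 1.36-fold higher than WT (1.29 to 1.45), whereas dE3 was at 0.989 of WT (0.928 to 1.05). WT and dE3 lay together, with cKO above both. In TPM there was 10.1, 9.63 and 4.90 times as much Ctnnb1 as Jup. Plakoglobin made up 9.03%, 9.41% and 16.9% of the summed TPM of the pair.

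The Jup counts lay almost wholly on 1 coding transcript. Jup-201 took 94.9%, 89.7% and 93.7% of them, and was 1.35-fold higher in cKO than in WT (1.27 to 1.43). Jup-202, of the same coding length but with 13 exons in place of 14, had 42, 149 and 70 counts. It was 3.23-fold higher in dE3 than in WT (2.28 to 4.67), on few counts.

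Several other tissues that can express plakoglobin also left more RNA in the cKO library. The endothelial list (8 genes) summed to 226, 253 and 329 CPM, and 7 of the 8 stood apart as higher in cKO. The dorsal root ganglion list summed to 414, 350 and 625 CPM, with 5 of 7 measured genes higher and 1 (Pou4f1, at 0.760 of WT, 0.721 to 0.801) lower in cKO, and the mesenchyme and meninges list (10 genes) to 707, 1323 and 1573, with 9 of 10 higher. For these lists no matched gene was at 0 in any library. Of all measured genes, 12.9% stood apart as higher in cKO and 12.4% as lower. The epidermis list (12 genes) summed to 9.45, 26.9 and 10.6 CPM, with Krt8 at 0 in WT and Cldn6 at 0 in cKO. The part of these tissues in the Jup value was not tested. In bulk RNA, fewer cells of a type and less RNA per cell cannot be told apart.

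Among the α-catenins, Ctnna1 took a larger share in dE3. Ctnna1 (ENSMUSG00000037815, chromosome 18, 35118888 to 35254773, plus strand), the α-catenin of epithelia and most other tissues, had 2352, 4071 and 3182 counts, or 73.6, 116 and 96.4 CPM. It was 1.58-fold higher than WT in dE3 (1.5 to 1.66) and 1.31-fold higher in cKO (1.24 to 1.38). WT was the lowest library and dE3 the highest. All its counts lay on 1 transcript, so no choice of transcript bears on this value.

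Ctnna2 (ENSMUSG00000063063, chromosome 6, 76881637 to 77979699, minus strand), the α-catenin of neurons, had 9211, 8339 and 9717 counts, or 288, 238 and 294 CPM. Its ratio to WT was 0.825 for dE3 (0.801 to 0.850) and 1.02 for cKO (0.992 to 1.05), an interval that includes 1. The leading transcript, Ctnna2-202, held 84.4%, 84.3% and 85.9% of the counts. Among the minor ones, Ctnna2-206, a shorter coding form with 8 exons, had 203, 169 and 83 counts, or 0.396 of WT in cKO (0.303 to 0.513). Ctnna2-204 and Ctnna2-201, both coding, lay on the other side, with 13, 38 and 66 counts and with 7, 8 and 44. They were 4.91-fold (2.68 to 9.71) and 6.08-fold (2.72 to 16) higher in cKO than in WT, on few counts.

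Ctnna3 (ENSMUSG00000060843, chromosome 10, 63430098 to 65003667, plus strand), called αT-catenin, was the member furthest from WT. It had 325, 55 and 197 counts, or 10.2, 1.57 and 5.97 CPM. It was 6.48-fold lower than WT in dE3 (4.86 to 8.79), and in cKO it was at 0.587 of WT (0.489 to 0.702). Of all measured genes, 0.586% lay at or below its dE3 ratio and 5.84% at or below its cKO ratio. WT was highest and cKO stood between, and the 55 counts in dE3 are the thinnest value among the members.

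The leading Ctnna3 transcripts share a coding length of 2685 bases and differ in where they start. Ctnna3-202 had 199, 55 and 59 counts. Ctnna3-201, which starts downstream of it, had 64, 0 and 124, and Ctnna3-203, which starts upstream of both, had 35, 0 and 0. In dE3 the counts lay on Ctnna3-202 alone. In cKO, Ctnna3-202 was at 0.287 of WT (0.211 to 0.385), while Ctnna3-201 was 1.87-fold higher (1.38 to 2.58). Without Ctnna3-202, the gene's log2 ratio of cKO to WT went from -0.77 to 0.084 (-0.28 to 0.44). Ctnna3-202 was left out because it differed most, so the value moves by construction.

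In TPM, Ctnna1 made up 20.1%, 33.1% and 24.9% of the α-catenin RNA. The share of Ctnna2 was 76.6%, 66.5% and 73.2%, and that of Ctnna3 3.21%, 0.445% and 1.94%. The 3 genes together summed to 243, 237 and 259 TPM, so the sums lay closer together than the single genes.

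Ctnna1 was highest in the library where muscle and cartilage markers were highest, and Ctnna2 lowest where the pan-neuronal genes were lowest. The cartilage list (10 genes) summed to 173, 937 and 458 CPM, with no gene at 0. The skeletal muscle list (12 genes) summed to 9.26, 167 and 42.8 CPM, with Ckm, Tnnc2 and Tnni1 at 0 in WT and Ckm at 0 in cKO. All 12 muscle and all 10 cartilage genes were 2-fold or more above WT in dE3, against 6.52% of all measured genes. Of the 10 pan-neuronal genes, 5 stood apart as lower in dE3 and 1 as higher, with a median log2 ratio of -0.33. Of all measured genes, 15.3% stood apart as lower in dE3 and 17.3% as higher. Other non-neural lists did not all share the order of Ctnna1. The mesenchyme and meninges list (707, 1323 and 1573 CPM) and the endothelial list (226, 253 and 329) were highest in cKO. So was the Schwann and neural crest list (79.6, 99.4 and 118), whereas the epidermis list (9.45, 26.9 and 10.6) was highest in dE3. The part of these tissues in the α-catenin values was not tested.

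Each α-catenin gene carries inside it, on the opposite strand, a gene of the Lrrtm family, which encode synaptic adhesion proteins. These genes were looked up because of that overlap, after the α-catenin values were seen. Lrrtm3, inside Ctnna3, had 724, 423 and 649 counts, a ratio to WT of 0.533 (0.471 to 0.601) for dE3 and 0.867 (0.779 to 0.966) for cKO. Lrrtm1, inside Ctnna2, had 1262, 826 and 1555 counts, a ratio of 0.597 (0.546 to 0.652) and 1.19 (1.11 to 1.29). Both hosts and both inner genes were lowest in dE3.

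Lrrtm2, inside Ctnna1, had 1089, 1022 and 1027 counts, a ratio of 0.856 (0.785 to 0.933) for dE3 and 0.913 (0.837 to 0.995) for cKO. It was lower in both mutants, while its host was higher in both. Lrrtm1 and Lrrtm3 share no exonic base with their hosts, and Lrrtm2 shares 95 with Ctnna1. Whether counting used strand is unknown, so reads in those 95 bases cannot be assigned.

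**Figure D4:**
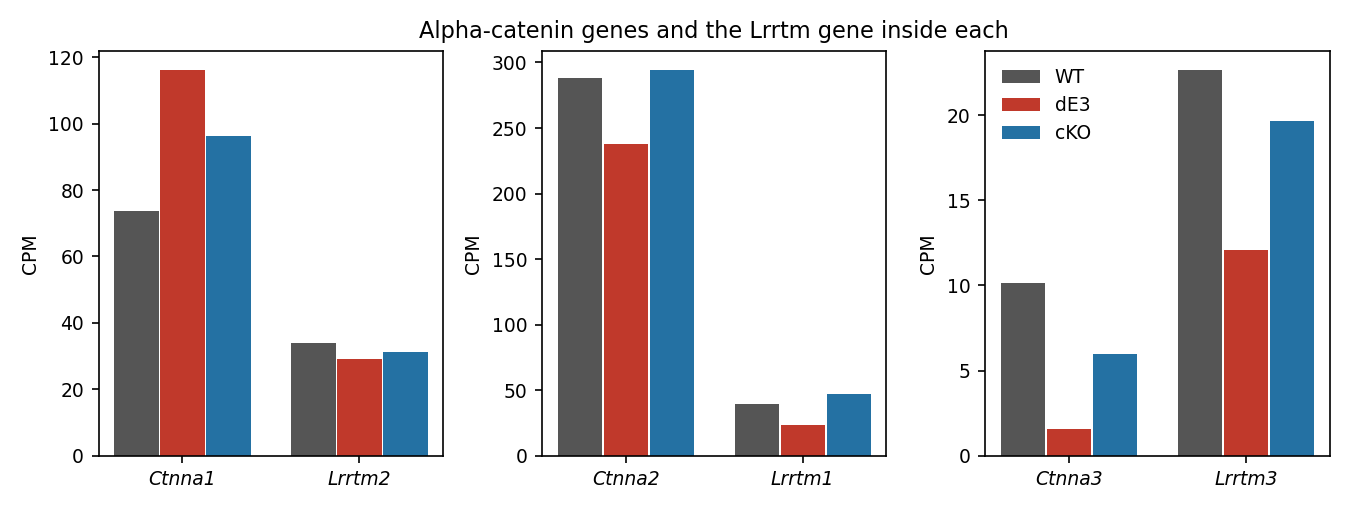
CPM of each α-catenin gene and of the Lrrtm gene inside it, 1 bar per library, with a separate axis from 0 for each pair. Ctnna3 and Lrrtm3 are both lowest in dE3, as are Ctnna2 and Lrrtm1, whereas Ctnna1 is highest in dE3, where Lrrtm2 is at 29.2 CPM against 34.1 in WT.

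The p120 family genes lay on opposite sides of WT in dE3. Ctnnd1 (ENSMUSG00000034101, chromosome 2, 84600071 to 84650765, minus strand) had 7227, 8694 and 7035 counts, or 226, 248 and 213 CPM. Its ratio to WT was 1.10 (1.06 to 1.13) for dE3 and 0.942 (0.911 to 0.973) for cKO, both well inside the central 80% of all genes. Ctnnd2 (ENSMUSG00000022240, chromosome 15, 30172593 to 31029311, plus strand), found in neurons, where it binds cadherins at synapses, had 5892, 4981 and 6466 counts, or 184, 142 and 196 CPM. Its ratio to WT was 0.771 (0.742 to 0.800) for dE3 and 1.06 (1.02 to 1.10) for cKO. In TPM there was 1.49, 2.11 and 1.34 times as much Ctnnd1 as Ctnnd2, and the pair summed to 191, 187 and 191 TPM.

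Although the Ctnnd1 total hardly differed, its transcripts did. Ctnnd1 is known for alternative coding exons that are used differently between cell types, and 30 of its transcripts were in the table. Ctnnd1-201 had 5061, 3999 and 1 counts, and Ctnnd1-202 had 899, 3097 and 5470. The former made up 70.0%, 46.0% and 0.0142% of the gene's counts, the latter 12.4%, 35.6% and 77.8%. Summed, they held 82.5%, 81.6% and 77.8%, so most of the difference was an exchange between them.

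Their coding sequences differ by a single exon of 18 bases, or 6 codons (chr2:84612532-84612549, minus strand, GRCm38), which Ctnnd1-201 holds. Their exons upstream of the start codon differ as well. The exon is printed in capitals with 15 bases of the exons on each side, above the same join without it, because it is the whole coding difference between the transcripts.

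Ctnnd1-201: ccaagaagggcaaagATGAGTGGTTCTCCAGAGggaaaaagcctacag
Ctnnd1-202: ccaagaagggcaaagggaaaaagcctacag

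Of the 24 coding transcripts of Ctnnd1, 10 hold this exon. They took 79.3% of the coding counts in WT (78.3 to 80.2), 55.5% in dE3 (54.4 to 56.5) and 11.9% in cKO (11.2 to 12.7). Another alternative exon, of 87 bases, was on transcripts with 3.89% of these counts in WT (3.45 to 4.38), 5.84% in dE3 (5.35 to 6.37) and 0.326% in cKO (0.205 to 0.493). The third, of 63 bases, stood at 12.6% (11.9 to 13.5), 13.0% (12.3 to 13.7) and 17.7% (16.8 to 18.7). Transcripts with the 18-base exon held 5499, 4602 and 805 counts, of which Ctnnd1-201 alone gave 5061, 3999 and 1. By these counting intervals the 18-base exon and the 87-base exon each set all 3 libraries apart, while for the 63-base exon those of WT and dE3 overlapped. The intervals do not cover error in assigning reads to transcripts. The reads that separate these transcripts were not analysed here.

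**Figure D5:**
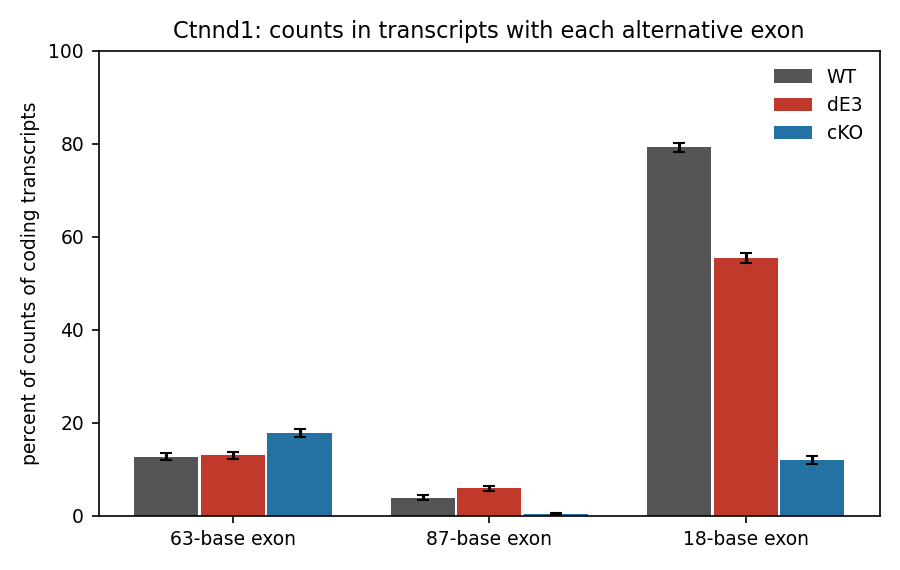
Percent of the counts of the 24 coding Ctnnd1 transcripts that lay on transcripts with each of 3 alternative exons, by library; bars start at 0 and whiskers are 95% exact binomial intervals. The 18-base exon goes from 79.3% in WT to 55.5% in dE3 and 11.9% in cKO.

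Ctnnbip1 encodes ICAT, which binds β-catenin and keeps TCF factors from it. Ctnnbip1 (ENSMUSG00000028988, chromosome 4, 149518236 to 149566437, plus strand) had 2871, 2672 and 2876 counts, or 89.8, 76.2 and 87.1 CPM. Its ratio to WT was 0.848 (0.805 to 0.895) for dE3 and 0.969 (0.920 to 1.02) for cKO. WT and cKO were not separated by counting error, and dE3 was the lowest. It shares 24.6% of its 50-base words with an antisense gene, Gm13066, which had 5, 0 and 3 counts.

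Sequence shared with other genes touched 2 more members. Ctnnd1 shares 56.7% of its words with Gm28635, a gene on the same strand listed at 0 counts in all 3 libraries. Ctnnb1 shares 12.3% with Ulk4, which lies on the opposite strand and had 265, 355 and 180 counts, few beside the 13936 or more of Ctnnb1. For the other 5 members the share was at most 0.783%.

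Classical cadherins, which hold catenins at the membrane, lay on both sides of WT in dE3. Of 18 measured, 4 stood apart as higher and 6 as lower, with a median log2 ratio of -0.21, where 17.3% and 15.3% of all measured genes did. In cKO 3 stood apart as higher and 0 as lower (median 0.14), where 12.9% and 12.4% of measured genes did. Cdh2 (N-cadherin), the most abundant, stood at 396, 357 and 387 CPM. Cdh11, a cadherin of mesenchyme, stood at 146, 202 and 180 CPM, Cdh4 at 128, 114 and 144, and Cdh8 at 89.1, 67.6 and 85.2. At 2-fold, Cdh20 was lower in dE3 (0.472 of WT, 0.390 to 0.570). Cdh15, the cadherin of muscle precursors, was higher in dE3 (3.41-fold, 2.46 to 4.82) and in cKO (2.10-fold, 1.47 to 3.03), as were the muscle markers above.

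Desmosomal genes, the other partners of plakoglobin, were barely present. The list of 11 summed to 11.8, 19.7 and 13.8 CPM, 6 were measured, and Dsg1b and Dsc1 were at 0 in all libraries. Of the 6, 2 passed 2-fold in dE3: Dsp (desmoplakin) was at 4.74 CPM against 1.44 in WT (3.29-fold, 2.36 to 4.67) and Perp at 6.79 against 2.69 (2.52-fold, 1.96 to 3.27). At 2-fold, 10.3% of all measured genes passed in dE3 and 6.89% in cKO. In cKO, where Jup was highest, none of the 6 passed 2-fold, and Dsp was at 1.36 CPM. Evpl stood at 3.44, 2.65 and 4.15 CPM and Ppl at 1.44, 2.31 and 1.54.

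The p120 relatives formed an abundant and a rare set. Arvcf stood at 167, 159 and 156 CPM and Pkp4 at 60.3, 60.3 and 59.0. Of the plakophilins, which are desmosomal, Pkp2 was 2.19-fold higher in dE3 (1.74 to 2.78) at 7.28 CPM and Pkp1 4.07-fold higher in dE3 (2.20 to 8.09) at 1.65 CPM. Pkp3, with 7, 19 and 20 counts, was 2.76-fold higher in cKO (1.12 to 7.74) at 0.606 CPM. In dE3 it was 2.47-fold higher (0.996 to 6.97) at 0.542 CPM, an interval that includes 1, so the mutants hardly differed. In the epidermis list, 8 of 10 measured genes were 2-fold or more above WT in dE3, against 6.52% of all measured genes. The part of epidermis in the plakophilin values was not tested.

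Among the 12 destruction complex genes, which hold β-catenin levels down, 11 did not stand apart from WT in either mutant. Of all measured genes, 32.6% stood apart from WT in dE3 and 25.2% in cKO. Among genes with at least 1000 counts these shares were 24.2% and 14.6%. Apc2, Ppp2r1a, Csnk1a1 and Gsk3b, the most abundant, had ratios from 0.890 to 1.06 in dE3 and from 1.02 to 1.07 in cKO. Axin2, which also belongs to this complex, was not in this list and was counted with the Wnt targets. It was 6.67-fold higher than WT in dE3 (6.30 to 7.07) and at 0.866 of WT in cKO (0.800 to 0.937). Of the 14 TCF and cofactor genes, 2 passed 2-fold in dE3, Lef1 (14.8-fold higher, 12.6 to 17.5) and Tcf7 (2.84-fold higher, 2.46 to 3.29), which are also Wnt targets, and 0 passed in cKO. The most abundant of this list, Ep300, Bcl9, Pygo1 and Crebbp, had ratios from 0.884 to 1.05 in dE3. Of all measured genes, 10.3% passed 2-fold in dE3 and 6.89% in cKO (3.8% and 1.42% of genes with at least 1000 counts). The 12 actin linkers and nectins had 0 members past 2-fold in either mutant. Of these, Afdn, Actn4, Tjp1 and Nectin1 stood at 216, 110, 110 and 79.7 CPM in WT and at 234, 128, 128 and 127 CPM in dE3.

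The pattern of Ctnnb1 over the 3 libraries was shared by other genes. Likeness was the distance between pairs of log2 ratios to WT (dE3 and cKO) among genes within 2-fold of its mean CPM. The nearest 3 of 648 were Ebf3 (log2 ratios of -0.24 and -0.35), Hoxb8 (-0.27 and -0.40) and Hsp90aa1 (-0.20 and -0.35), and 12 of the 648 (1.85%) lay within a distance of 0.1. For Jup the nearest of 4768 were Hpcal1, Ppp6c and B4gat1, with log2 ratios of 0.45, 0.42 and 0.48 for cKO, and 26 (0.545%) lay within 0.1.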

How the data were processed

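The labels' protocols name an mRNA-seq kit and 1 µg of total RNA per library. CASAVA, Bowtie2 2.3.2 and GRCm38.p6 are listed, without roles, in the submitters' processing notes. Quantifier, annotation release and use of strand: not given in the sources used here. The authors deposited estimated counts per gene and transcript as whole numbers, and the file headers also name deposited TPM and FPKM columns. Each of the 51826 gene counts was the sum of its transcripts' counts. The deposited FPKM columns were not analysed.

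Counts were scaled by TMM over measured genes (edgeR 4.0.16, R 4.3.3; factors 0.993, 1.01 and 0.999). Ratios have exact conditional binomial 95% intervals and shares exact Clopper-Pearson 95% intervals. Without molecular identifiers, reads of 1 molecule may be counted repeatedly. A 0 was set to a floor of 3 counts in that library. Members at least 1.25-fold (25% higher or 20% lower) or 2-fold apart, with an interval excluding 1, were counted beside all measured genes. Transcript names, exons and sequences came from GENCODE vM21 (GRCm38), which held 99.6% of the deposited transcripts. Shared sequence counts every 50-base word of a gene's transcripts that another gene's transcripts hold.

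A rule set which genes could be named: all members, their transcripts with at least 20 counts, up to 4 members by CPM of each partner list and those past 2-fold, and 3 genes nearest to Ctnnb1 and to Jup. Not every gene or transcript that met the rule is named, and some marker and overlapping genes are named outside it. The members, lists and rules were chosen with earlier results of these data known. The 17 lists were 7 of partners and 10 of markers. The spinal axial list (6 Hox genes) summed to 2009, 1845 and 1739 CPM, and the Schwann and neural crest list (6 genes) to 79.6, 99.4 and 118. Drgx was not matched. Scaling (also DESeq2 1.42.0 size factors), unit, filter and transcript choice were varied.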

Additional observations from a re-analysis of the deposited data

How the results depend on the processing

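With total-count scaling and with DESeq2 size factors, all 24 member ratios (8 genes, 3 comparisons) stayed within their counting intervals. On the TPM scale, the Ctnnb1 log2 ratio was -0.026 in dE3 against WT (pseudocount 0.1 or 1), -0.52 in cKO against WT and 0.49 in dE3 against cKO. Leaving out Ctnnb1-209, the transcript that differs most, gave -1.27, 0.18 and -1.45, and protein-coding transcripts alone gave -0.93, 0.57 and -1.50, so the cKO value and that of dE3 against cKO (0.13 with all transcripts) changed sign under both. Leaving out the transcript that differs most also changed the sign of other ratios: 0.084 for Ctnna3 in cKO against WT (without Ctnna3-202) and 0.24 for Jup in dE3 against cKO (without Jup-201), -0.31, 1.65 and -0.67 for Ctnnd1 in the 3 comparisons (0.13, -0.09 and 0.22 with all transcripts), -0.12 for Ctnna2 in cKO against WT (0.03) 1.00 for Jup in dE3 against WT (-0.02), and 0.13 and 0.44 for Ctnnbip1 in dE3 and cKO against WT (-0.24 and -0.05). The intervals of the values for Ctnna3, for Ctnnbip1 and for Jup in dE3 against cKO include 0. These alternatives move the value by construction, since they drop a leading transcript or all noncoding ones. As a share of TPM, Ctnnb1-209 was 48.2% in WT, 73.3% in dE3 and 18.1% in cKO. Counts of members past both limits stayed within 1.5 times under every filter, scaling and unit tried. With at least 100 counts required, 882 of 13967 genes passed 2-fold in dE3 against WT (1861 at the minimum of 20), 401 in cKO against WT (1246) and 912 in dE3 against cKO (1988); with no filter, 2048 did in cKO against WT. No paired analysis was possible because each genotype has 1 library. The 18-base exon of Ctnnd1, as a share of TPM (chosen after seeing the data), was 79.8%, 55.2% and 10.9%. The limit throughout is the single library per genotype; Ctnna3 in dE3 is also limited by its 55 counts.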

Other observations

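Some junction and cofactor genes outside the rule for named genes stood 25% or more above WT, or 20% or more below it, and were chosen after their values were seen. Nectin2, a nectin adhesion receptor, was 1.46-fold higher in dE3 than in WT (1.34 to 1.59) and 1.68-fold higher in cKO (1.55 to 1.82). Cdh5, the cadherin of endothelium, was 1.46-fold (1.36 to 1.56) and 1.78-fold higher (1.66 to 1.90). Vcl (vinculin), a relative of the α-catenins, was at 0.782 of WT in dE3 (0.730 to 0.838) and 1.20-fold higher in cKO (1.13 to 1.28). Tle1, a co-repressor that competes with β-catenin for TCF factors, was 1.83-fold higher in dE3 (1.74 to 1.92) and at 0.982 of WT in cKO (0.929 to 1.04). Apc, the scaffold of the destruction complex, was the member of its list that stood apart, lower in both mutants, at 0.795 (0.774 to 0.815) and 0.776 (0.755 to 0.796) of WT.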
